A study of Mus musculus with 12 samples.

Results

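The genes described here are mouse zinc finger protein genes whose symbol is Zfp followed by a number, other than Zfp36 and Zfp57. Only those that averaged at least 1 CPM over 6 RNA libraries were kept. CPM are read counts scaled to the library total after its adjustment by a scaling factor (TMM). Of 44345 genes in the count tables, 338 had such a symbol and 295 reached that level; the other 43 symbols averaged less. The members were chosen by name and level over both treatments together, so the level itself is a description, and the family was picked with earlier results of these data known. The tissue was dorsal root ganglia L4 to L6, which hold the cell bodies of sensory neurons with their glia, and both RNA and open chromatin were measured. All mice were C57BL/6, aged 6 to 8 weeks, and all had received a dorsal column axotomy, a cut through the spinal tract that carries the central axons of these neurons, 24 h before the tissue was taken. One group received 12 mg/kg of MS275, also called entinostat, which inhibits class I histone deacetylases, into the peritoneum, and the other received the vehicle, a mixture of Tween80, PEG300 and DMSO. Each was injected when the cut was made and once more 2 h before sacrifice. RNA-seq covered 3 libraries per group, each a pool of 2 mice, and ATAC-seq, which finds accessible DNA by transposase insertion, used 3 mice per group, combined by the authors into 1 list of open regions per treatment. Both groups carried the injury, and uninjured or untreated mice were not analysed here.

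Most genes of this family encode proteins with a row of C2H2 zinc fingers, each finger reading a short stretch of DNA. Many also carry a KRAB domain, which recruits the scaffold TRIM28; TRIM28 brings the histone methyltransferase SETDB1, HP1 proteins and a deacetylase complex that holds HDAC1 and HDAC2, and the bound DNA is silenced. Such proteins are best known for holding retrotransposons and imprinted genes silent. Their genes multiplied by tandem duplication and often stand in clusters of related copies, so their reads can be shared between copies.

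The RNA libraries held 34992533 to 60370523 reads assigned to genes. Markers of sensory neurons were abundant in all 6 libraries, with 9 of 9 found and a summed level of 9059 to 9241 CPM after vehicle and 9092 to 9913 CPM after MS275, and none of the 9 passed the test. Markers of skeletal muscle, a tissue outside the ganglion, were higher with MS275 for 9 of 9 genes. Their summed level was 7.13 to 56.2 CPM in vehicle, 641 CPM in MS275 replicate 1, and 92.8 and 95.6 CPM in MS275 replicates 2 and 3. Endothelial markers were higher for 3 of 4 genes (69.8 to 78.9 CPM in vehicle, 85.4 to 107.5 CPM after MS275), and neutrophil markers reached 238 CPM in MS275 replicate 1 while the other 5 libraries lay at 37.2 to 68.4 CPM. None of the markers found was at 0 in all libraries, and the part of the endothelial and neutrophil levels in the results was not tested. Of the satellite glia markers, 1 was lower and 1 higher (1161 to 1163 CPM in vehicle, 1185 to 1233 CPM after MS275). No marker passed the test on the lists for Schwann cells (4746 to 5787 and 5226 to 5896 CPM), erythroid cells (3 of 5 found; 51.1 to 63.8 and 31.5 to 142 CPM), proliferation (3.73 to 5.23 and 2.91 to 10.6 CPM) or adipocytes (2.16 to 2.88 and 3.00 to 11.7 CPM).

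The comparison asked how transcripts of these zinc finger genes differed between injured ganglia of mice given MS275 and of mice given vehicle. The family lay lower with MS275. Of 295 members, 74 (25.1%) were called lower and 3 (1.02%) higher, where a call is a Benjamini-Hochberg adjusted p under 0.05 in edgeR's quasi-likelihood test over all 16819 genes tested. Over all tested genes 5.89% were called lower and 5.1% higher, and among those averaging at least 1 CPM 6.88% were called lower. In bulk tissue, fewer cells of a type and less RNA per cell cannot be told apart.

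The size of the difference was modest and it was spread over the family. The median log2 fold change of the members was -0.21, with quartiles at -0.36 and -0.07, beside a median of 0.00 and quartiles at -0.13 and 0.13 over all tested genes. A negative value was found for 259 members (87.8%), against 49.5% of all tested genes. All 3 MS275 libraries lay below all 3 vehicle libraries for 159 members (53.9%), against 17.9% of all tested genes. The reverse order held for 7 members (2.37%), against 15.9%. Of the 295 members, 18 were called lower by 1.5-fold or more, where the whole table had 135 of 16819 genes (0.803%). Called higher by as much were 2 of the 295, where the whole table had 1.68%.

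Added together, the members held 5033, 5078 and 4994 CPM across the 3 vehicle libraries but 4518, 4632 and 4515 CPM across those given MS275. The groups did not overlap, and the MS275 mean (4555 ± 66.5 CPM, SD, n = 3) was 90.5% of the vehicle mean (5035 ± 42.2 CPM, SD, n = 3). The 74 members called lower, by that choice, made up 1206, 1216 and 1190 CPM after vehicle and 915, 951 and 927 CPM after MS275. The members that were not called summed to 3765, 3800 and 3743 CPM after vehicle and to 3526, 3598 and 3511 CPM after MS275, a total with MS275 that was 94.0% of that in vehicle. The 3 MS275 libraries were thus close to each other on this family. Their summed muscle marker levels were 641, 92.8 and 95.6 CPM, all above those of the vehicle libraries. The part of muscle level in the family's difference was not tested. The median ratio of a member to its vehicle mean was -0.19, -0.17 and -0.20 (log2) in MS275 replicates 1, 2 and 3, and 249, 245 and 246 of the 295 members lay under that mean.

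How many members passed the test depended on the libraries used, while the sign of the members' median did not. With each library left out in turn, 15 to 84 members were called lower and 1 to 4 higher, and the median stayed between -0.22 and -0.20; the lowest count, 15 members (5.08%), came without vehicle replicate 2, where 0.783% of all genes tested were called lower. Without vehicle replicates 1 and 3 the counts were 24 (8.14%) and 36 (12.2%), beside 1.04% and 2.28% of all genes. Without MS275 replicates 1, 2 and 3 they were 67 (22.7%), 84 (28.5%) and 42 (14.2%), beside 5.59%, 8.03% and 2.53% of all genes. With the muscle marker level as a covariate, 0 members were called lower and 1 higher. At an unadjusted p under 0.05, 69 members were lower with the covariate, against 143 in the fit reported. The share of all genes at that cutoff was not counted. With the covariate 238 members were negative and the median was -0.18. Only 6 genes of the whole table were called lower and 19 higher. The summed muscle level was higher in every MS275 library than in every vehicle library, so muscle level and treatment cannot be told apart here. The 74 members kept their negative sign with the covariate and in every other fit run. They were chosen as lower in these same libraries, so their sign adds no separate support. When libraries were scaled by their totals alone, all genes split into 1724 lower and 680 higher, beside 991 and 858 in the fit reported, and the members into 103 lower and 3 higher.

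**Figure D1:**
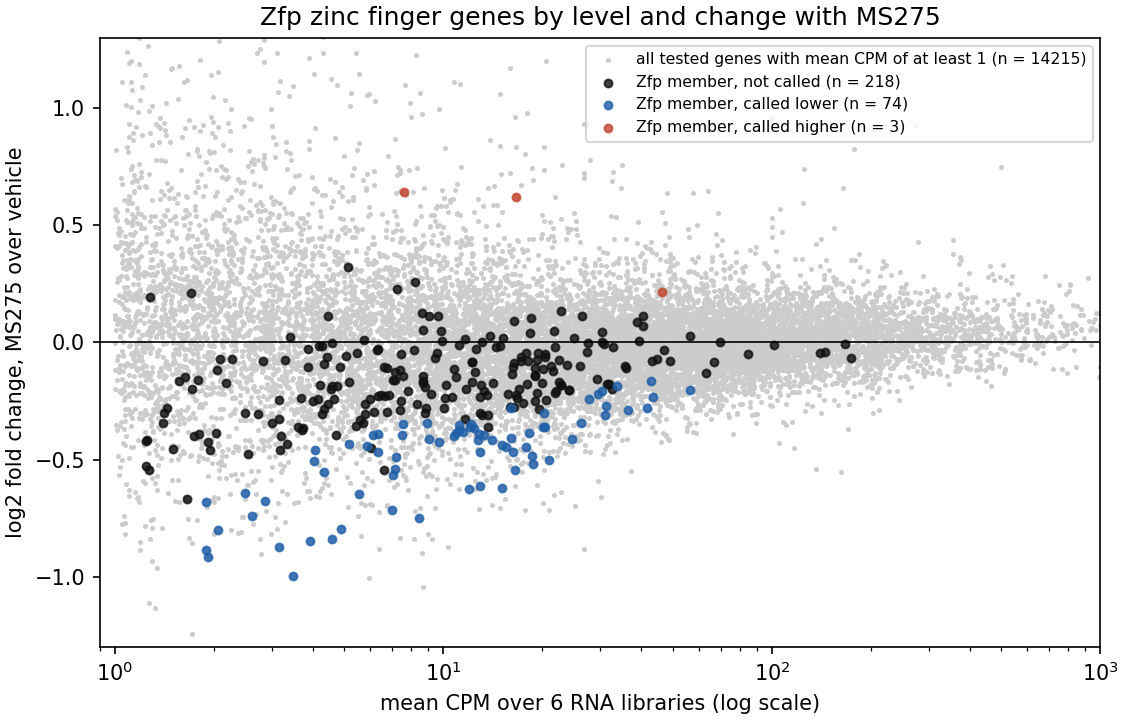
Log2 fold change of MS275 over vehicle (vertical axis) against mean CPM over the 6 libraries (horizontal axis, log scale) for the 295 members, with all tested genes averaging at least 1 CPM in grey. The vertical axis ends at 1.3 either side of 0 and the horizontal one at 1000 CPM, so some grey points beyond them are not drawn. Of the members, 259 lie under 0, and the 74 called lower (blue) are found at all levels.

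The members with the lowest fold changes were expressed at low levels and fell by up to 0.997 on the log2 scale. The upstream DNA of 3 of them is shown because they were among the 4 members with the largest decreases and their starts lay in open regions in both treatments. Each run is read 5′ to 3′ on the gene's strand from the RefSeq promoter table of build GRCm38.p6, which holds 250 bases before a listed start. For Zfp273 and Zfp472 that start is the first base of the gene's annotated span. For Zfp873 it lies 39 bases inside the span, and only the 211 bases outside are shown. The listed start of Zfp551, the other of the 4, leaves nearly all of its 250 bases inside the span, so none are shown. Capitals mark a match to 1 of 6 short motifs that were searched on both strands, described with the promoters further on.

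Zfp273, chr13:67813566-67813815, plus strand: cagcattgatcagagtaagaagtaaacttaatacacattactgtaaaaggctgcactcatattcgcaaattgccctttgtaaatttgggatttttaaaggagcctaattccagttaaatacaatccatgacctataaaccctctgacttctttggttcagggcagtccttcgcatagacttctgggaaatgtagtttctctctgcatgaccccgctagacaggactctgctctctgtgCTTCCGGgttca
Zfp873, chr10:82047873-82048083, plus strand: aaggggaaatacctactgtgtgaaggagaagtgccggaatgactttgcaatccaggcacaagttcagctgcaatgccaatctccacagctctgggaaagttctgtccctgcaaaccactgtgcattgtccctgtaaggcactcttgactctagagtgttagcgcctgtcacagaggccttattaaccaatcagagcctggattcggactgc
Zfp472, chr17:32965581-32965830, plus strand: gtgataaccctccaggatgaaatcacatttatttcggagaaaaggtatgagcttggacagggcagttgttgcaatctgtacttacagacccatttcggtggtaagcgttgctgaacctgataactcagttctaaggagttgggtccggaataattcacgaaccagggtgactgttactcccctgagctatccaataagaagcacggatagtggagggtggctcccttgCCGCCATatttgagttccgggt

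These stretches differ in base composition. Zfp273 has 42% G and C with 4 CG dinucleotides, and its capitals are CTTCCGG, the reverse complement of the ETS-type motif CCGGAAG. Zfp472 has 48% with 8 CG, and its capitals are CCGCCAT, the reverse complement of the Yy1-type motif ATGGCGG. Zfp873 (50.2%, 3 CG) holds none of the 6 motifs in these bases.

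Zfp273 (chr13:67813816-67827000 of GRCm38.p6) had the lowest value of the family. It stood at 4.66, 4.36 and 4.90 CPM after vehicle and at 2.17, 2.38 and 2.40 CPM after MS275, a log2 fold change of -0.997 (SE 0.12, adjusted p = 0.00282). By the choice of these genes, every MS275 library lay under every vehicle library. The gene overlaps 4930525G20Rik, and the handling of reads from overlapping genes is unknown here, so its value is less certain than that of a gene standing alone.

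Zfp873 (chr10:82048084-82077727) stood at 2.65, 2.54 and 2.37 CPM after vehicle and at 1.42, 1.26 and 1.33 CPM after MS275 (log2 fold change -0.92, SE 0.15, adjusted p = 0.00905). It overlaps Gm18556. Zfp551 (chr7:12412549-12422739) overlaps no annotated gene; it read 2.30, 2.36 and 2.75 CPM after vehicle and 1.13, 1.47 and 1.39 CPM after MS275 (-0.89, SE 0.17, adjusted p = 0.0148). Zfp472 (chr17:32965831-32979211), also free of overlap, read 4.24, 4.11 and 3.96 CPM after vehicle and 2.59, 2.09 and 2.03 CPM after MS275 (-0.87, SE 0.14, adjusted p = 0.00799). In these genes too the groups did not overlap, which was a condition of their choice. MS275 replicate 1 was the highest of its group for Zfp472 and the lowest for Zfp551, so the order of the MS275 libraries differed between genes.

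Zfp568 (chr7:29983955-30028282) encodes a KRAB protein known for silencing a placental transcript of Igf2. It read 4.97, 5.08 and 5.10 CPM after vehicle and 2.82, 2.69 and 2.92 CPM after MS275 (-0.84, SE 0.11, adjusted p = 0.00357). Its neighbours on chromosome 7 included Zfp84, which was the most strongly expressed of the 15 lowest members. Zfp84 read 10.8, 11.3 and 9.69 CPM after vehicle and 6.31, 6.64 and 5.97 CPM after MS275 (-0.75, SE 0.09, adjusted p = 0.00282), and it overlaps Mir1964. Zfp420 encodes a KRAB protein described as a negative regulator of p53. It read 9.78, 8.83 and 7.49 CPM after vehicle against 5.56, 5.53 and 4.78 CPM after MS275 (-0.71, SE 0.12, adjusted p = 0.00905). All 3 lie in 1 cluster of members, and by the same choice the groups were apart for each.

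A second place on chromosome 7 held Zfp235 and Zfp111. Zfp235 read 5.62, 5.80 and 6.18 CPM after vehicle and 3.07, 3.39 and 3.39 CPM after MS275 (-0.84, SE 0.11, adjusted p = 0.00356). Zfp111 read 6.28, 6.59 and 5.68 CPM after vehicle and 3.70, 3.48 and 3.50 CPM after MS275 (-0.80, SE 0.11, adjusted p = 0.0041). Both pairs of groups were apart by more than the range within either group. Zfp61, further along, was lower by a smaller amount (-0.65, adjusted p = 0.0158) and overlaps its relative Zfp94.

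The 15 lowest called members were completed by Zfp300 on the X chromosome (-0.80, adjusted p = 0.0162), Zfp882 (-0.74, adjusted p = 0.0314), Zfp202 (-0.68, adjusted p = 0.0461), Zfp418 (-0.68, adjusted p = 0.0213) and Zfp619 (-0.64, adjusted p = 0.0346). These genes averaged between 1.90 and 2.87 CPM, and their calls were less secure. Over all 77 called members, 15 kept their call with each of the 6 libraries left out in turn. These were Zfp273, Zfp472, Zfp568, Zfp235, Zfp111, Zfp84, Zfp719, Zfp646, Zfp282, Zfp319, Zfp142, Zfp12, Zfp276 and Zfp334, which were lower, and Zfp608, which was higher. Of 27 called members named by rule, 12, 15 and 8 lost their call without vehicle replicates 1, 2 and 3, 1, 0 and 6 without MS275 replicates 1, 2 and 3, and 26 with the muscle covariate. Zfp719 had the smallest standard error of the 18 members lower by 1.5-fold or more, with 15.2, 14.3 and 14.1 CPM after vehicle and 9.61, 9.50 and 9.12 CPM after MS275 (-0.63, SE 0.07, adjusted p = 0.00221).

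**Figure D2:**
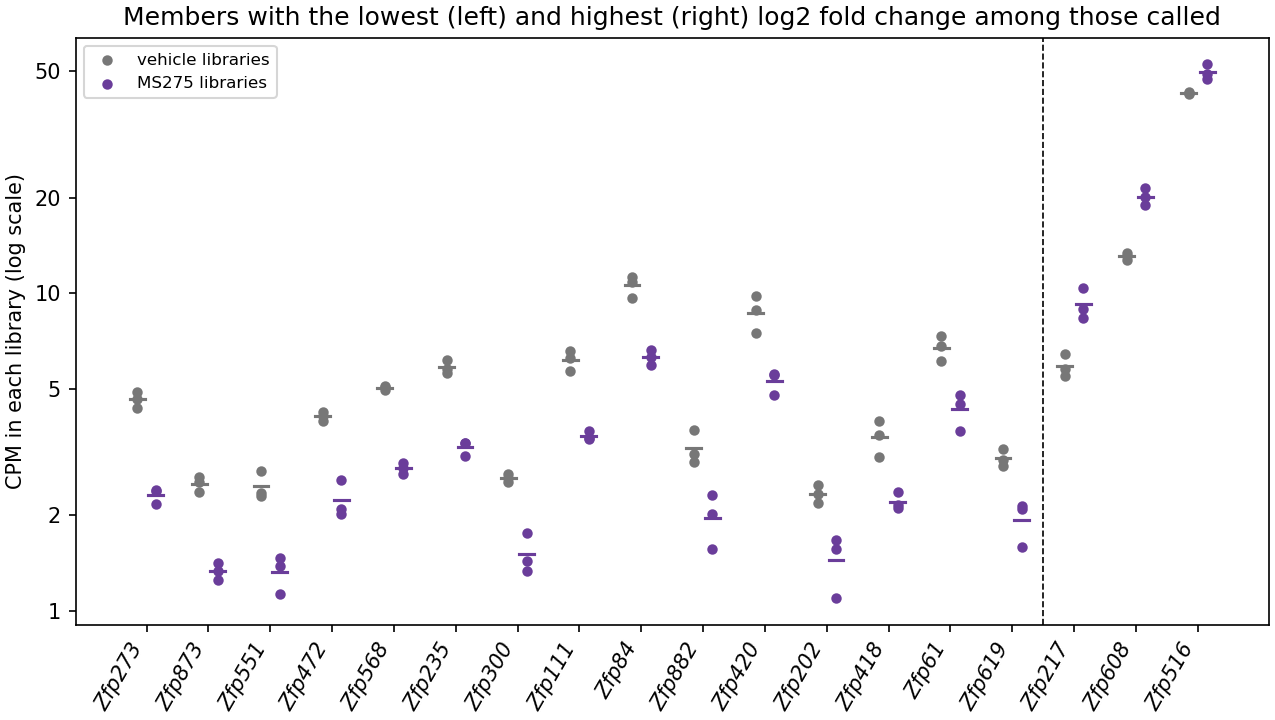
CPM in each library (log scale) of the 15 called members with the lowest log2 fold change (left of the dashed line) and of the 3 called higher (right), with the mean of each group as a short bar. The vehicle points (grey) lie above all MS275 points (purple) for the 15 and below them for the 3, which was a condition of their choice.

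Only 3 members were higher. Zfp217, which encodes a partner of the LSD1 and CoREST co-repressors known as an oncogene in breast cancer, read 6.43, 5.80 and 5.50 CPM after vehicle and 10.4, 8.92 and 8.37 CPM after MS275 (0.64, SE 0.11, adjusted p = 0.00954). Zfp608 on chromosome 18 read 12.8, 13.4 and 13.1 CPM after vehicle and 18.9, 21.5 and 20.0 CPM after MS275 (0.62, SE 0.07, adjusted p = 0.00221). It was the 1 member still called with the muscle covariate (adjusted p = 0.0492). Zfp516, an activator of Ucp1 in brown fat and also on chromosome 18, rose less, from 43.0, 42.7 and 42.5 CPM to 47.1, 52.5 and 49.1 CPM (0.21, SE 0.05, adjusted p = 0.0286). Zfp608 overlaps Gm4221 and Zfp516 overlaps 4930592I03Rik, while Zfp217 overlaps no annotated gene.

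The most abundant members showed little difference. Zfp664 averaged 179 ± 5.84 CPM after vehicle and 171 ± 7.84 CPM after MS275 (SD, n = 3), so that the log2 fold change was -0.07 (adjusted p = 0.39). Zfp706 averaged 167 ± 1.54 and 167 ± 2.51 CPM (-0.01, adjusted p = 0.915). Zfp106, an RNA-binding protein needed for motor neurons to be maintained, averaged 148 ± 7.47 and 143 ± 6.19 CPM (-0.04, adjusted p = 0.64). For all 3 genes the libraries of the groups overlapped.

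Some members have well described roles, and the following were picked for those roles after their values had been seen. Zfp445, a keeper of imprinted DNA methylation, was called lower, with 41.4, 42.5 and 36.4 CPM after vehicle and 32.5, 34.4 and 31.5 CPM after MS275 (-0.29, SE 0.07, adjusted p = 0.0277); it overlaps Zkscan7. Zfp369, related to the neurotrophin receptor interacting factor Zfp110, was also lower (-0.39, SE 0.10, adjusted p = 0.0398), whereas Zfp110 itself had a value of -0.07 (adjusted p = 0.47). The 2 genes were not tested against each other. Zfp809, which silences murine leukaemia virus in stem cells, had a value of -0.22 (adjusted p = 0.17). Zfp91, a ubiquitin ligase, Zfp207, a microtubule-binding protein of the spindle, and Zfp148, a factor of GC-rich promoters, had values of -0.04, -0.05 and -0.08 and were not called.

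The share of members called lower was above that of all genes at every level of expression. It was 3 of 22 (13.6%) at 1 to 2 CPM, 12 of 53 (22.6%) at 2 to 5, 16 of 68 (23.5%) at 5 to 10, 26 of 82 (31.7%) at 10 to 20 and 17 of 70 (24.3%) at 20 CPM and above. All tested genes of the same levels gave 1.33%, 4.91%, 8.09%, 10.9% and 6.75%. The size of the difference followed another order, since the median log2 fold change of the members was -0.41, -0.28, -0.22, -0.23 and -0.10 from the lowest to the highest level. All genes of these levels had medians of 0.10, 0.03, -0.04, -0.03 and -0.00. Across the 295 members, fold change and mean CPM had a Spearman coefficient of 0.36, against -0.06 across all 16819 genes; this describes genes of the same 6 libraries, which are not independent replicates.

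**Figure D3:**
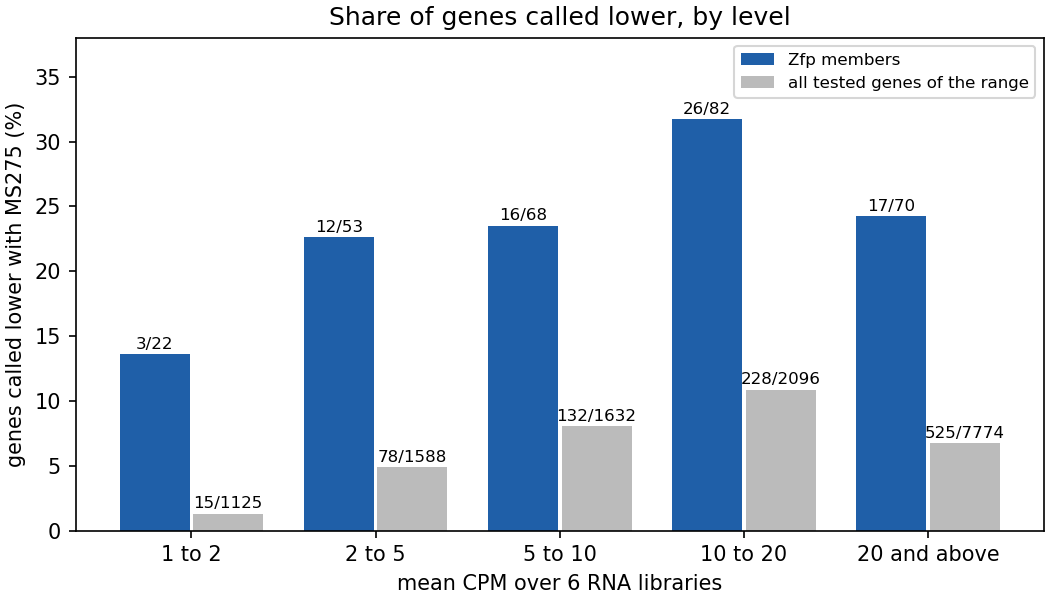
Percentage of genes called lower with MS275 (vertical axis) in 5 ranges of mean CPM (horizontal axis), for members (blue) and all tested genes of the range (grey), with the counts above each bar. The members' share runs from 13.6% to 31.7% and that of all genes from 1.33% to 10.9%.

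At the edge of the level that defined membership, Zfp791, Zfp429 and Zfp558 stood just inside, with means of 1.24, 1.25 and 1.25 CPM and log2 fold changes of -0.53, -0.42 and -0.41. Just outside, Zfp185, Zfp69 and Zfp599 averaged 0.998, 0.998 and 0.837 CPM, with values of 0.66, -0.74 and -0.60. Zfp185 and Zfp69 thus had values of opposite sign at nearly the same level, but neither was called (adjusted p = 0.215 and 0.112 in edgeR's test). The other genes named at this edge were not called either. Without MS275 replicate 1 the value of Zfp185 was 0.25.

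Other families named for zinc fingers were set beside the members without a test between them. Of 38 Zbtb genes, whose proteins join zinc fingers to a BTB domain, 11 (28.9%) were called lower and 2 higher, with a median of -0.18. Of 20 Zscan and Zkscan genes, whose proteins carry a SCAN domain, 5 (25%) were lower and 0 higher (median -0.18). Of 18 Zc3h genes, which encode fingers of the CCCH type that mostly bind RNA, 3 (16.7%) were lower and 0 higher (median -0.03). These shares stand beside 25.1% of the members and 5.89% of all tested genes, so a share of lower calls near that of the members was also found in the Zbtb, Zscan and Zkscan genes.

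RefSeq positions were found for 294 members. Runs of at least 3 members with no more than 500 kb between neighbours formed 25 clusters, which held 162 members. In them 50 members (30.9%) were called lower and 0 higher, beside 5.89% and 5.1% of all tested genes, with a median of -0.25. Outside clusters 24 of 132 (18.2%) were lower and 3 higher, with a median of -0.17. This gap between the shares narrowed to 27.3% against 23.5% when clusters were cut at 200 kb, and was 30.1% against 18.2% at 1000 kb; no test was made between them. Of the 18 members lower by 1.5-fold or more, 15 stood in clusters, which held 162 of the 294 members with a position.

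Clusters differed in how many of their members were called. The shares called lower were 25.1% over all members and 5.89% over all tested genes. On chromosome 17, from 32765496 to 33631716, 7 of 11 members were lower (median -0.36): Zfp472, Zfp871, Zfp870, Zfp563, Zfp81, Zfp101 and Zfp763. On chromosome 7, from 29768552 to 30169775, 6 of 14 were lower (median -0.30): Zfp568, Zfp84, Zfp420, Zfp30, Zfp790 and Zfp74. That cluster also holds Zfp260, whose log2 fold change was 0.00. On chromosome 6, from 47815536 to 48621548, 5 of 11 were lower (median -0.35), led by Zfp282 (-0.61, adjusted p = 0.00601), whose human counterpart binds the terminal repeat of a T-cell leukaemia virus.

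In 2 other large clusters all values were negative but few passed the test. Negative values were found for 87.8% of all members and 49.5% of all tested genes. The cluster of Zfp273 on chromosome 13, from 67038594 to 67827000, had 14 of 14 members negative, a median of -0.36 and 3 calls. The cluster of Zfp235 on chromosome 7, from 24081877 to 25227876, had 13 of 13 negative, a median of -0.20 and 3 calls. The longest cluster, on chromosome 17 from 21008941 to 23599755, behaved unevenly: of 20 members, 15 were negative, 3 were called lower, Zfp948 had the lowest value (-0.39, adjusted p = 0.0125) and the highest value was 0.32. In 5 clusters, with 3 to 6 members each, no member was called in either direction.

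**Figure D4:**
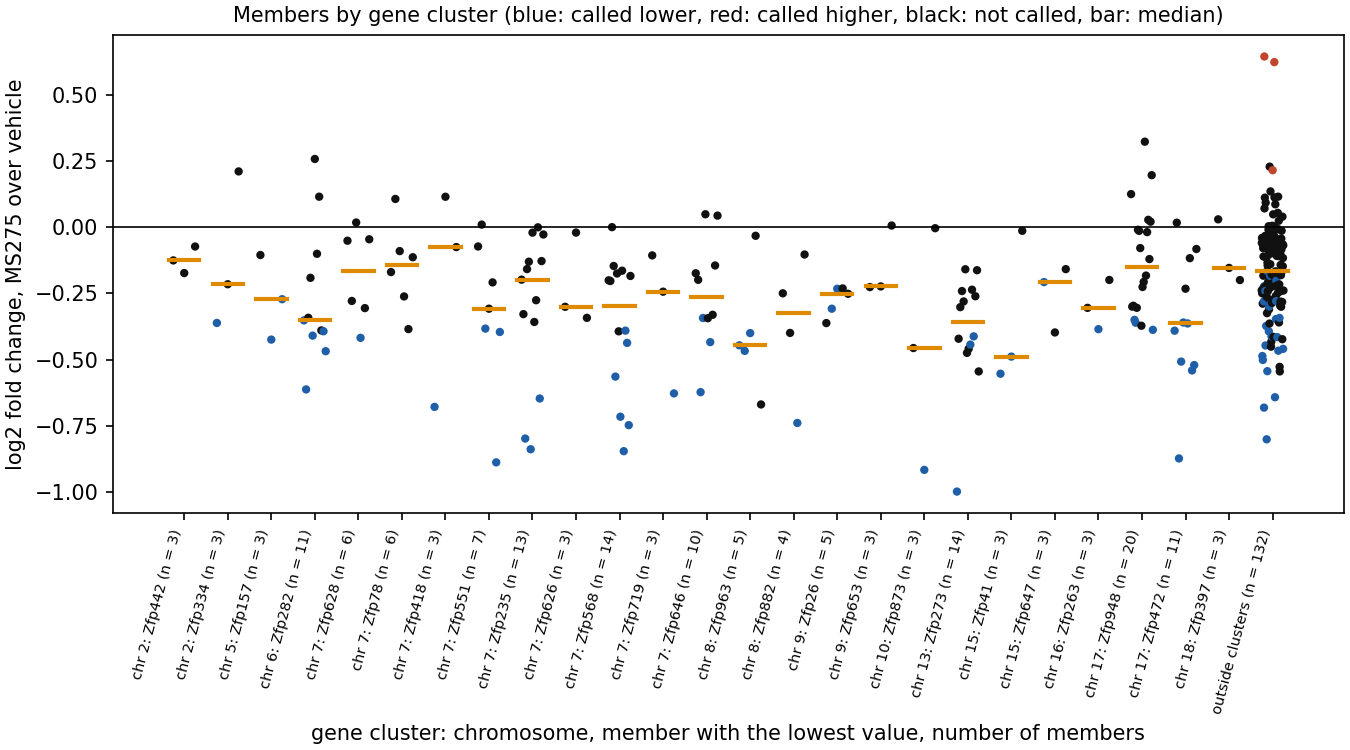
Log2 fold change of MS275 over vehicle for each member (points) in the 25 clusters and outside them, labelled by chromosome, the member with the lowest value and the number of members; orange bars are medians. All 25 cluster medians lie under 0, and the 3 members called higher (red) are outside the clusters.

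Chromosome 7 carried the most members, 76, of which 20 (26.3%) were lower, beside 6.41% of all tested genes there. Chromosome 17 followed with 12 of 37 (32.4%), beside 5.81%. The share was smaller on chromosome 2, with 1 of 14 (7.14%), beside 5.67% of all tested genes there. On chromosome 4 it was 1 of 10 (10%), beside 5.30%. Chromosome 18 was the one with more members higher (2) than lower (1) of its 10, and their median was -0.05. The medians of the members were negative on every chromosome except 14, where 3 members had a median of 0.07.

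Partners through which KRAB proteins silence DNA were examined in a list of 24 genes that also holds their relatives and other genes of silenced chromatin. All were tested. Of the 24, 6 (25%) were called lower and 0 higher, beside 5.89% and 5.1% of all tested genes, with a median of -0.12. Trim28, the scaffold itself, read 77.1, 74.5 and 72.8 CPM after vehicle and 63.8, 58.4 and 67.2 CPM after MS275 (-0.25, SE 0.06, adjusted p = 0.0239). Setdb1, its histone H3 lysine 9 methyltransferase, read 28.7, 31.5 and 31.9 CPM after vehicle and 23.9, 24.9 and 26.8 CPM after MS275 (-0.29, SE 0.07, adjusted p = 0.0283). Both were lower in each MS275 library than in any vehicle library.

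Smarcad1, a chromatin remodeller that binds TRIM28, was lower (-0.49, SE 0.07, adjusted p = 0.00656), as was Suv39h2, another lysine 9 methyltransferase, with 4.20, 4.34 and 5.12 CPM after vehicle and 3.11, 3.00 and 2.87 CPM after MS275 (-0.60, SE 0.13, adjusted p = 0.0192). Trim33, a relative of Trim28 (-0.29, adjusted p = 0.00874), and Morc3, an ATPase of silenced chromatin (-0.32, adjusted p = 0.0277), completed the 6. Hdac1 (0.02, adjusted p = 0.835) and Hdac2 (0.04, adjusted p = 0.492), which encode targets of MS275, were not called, and neither were the HP1 genes Cbx1, Cbx3 and Cbx5 or the remodellers Chd3 and Chd4. The number of list genes called was 1, 1 and 2 without vehicle replicates 1, 2 and 3, 7, 7 and 4 without MS275 replicates 1, 2 and 3, and 0 with the muscle covariate.

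Open chromatin at the starts of the members was nearly always listed in both treatments. The promoter table gave a strand and at least 1 start for 242 members; the outermost start listed there was used, which lay within 1000 bp of the end of the gene's annotated span for 211 of them. A region lay within 1000 bp of that start in both lists for 228 of them (94.2%), against 86.6% of 12385 tested genes. It was in the vehicle list alone for 3 members (Zfp626, Zfp652 and Zfp663), beside 2.9% of all genes, in the MS275 list alone for 0, beside 1.87%, and in neither for 11, beside 8.65%. Of the 228 members with a region in both lists, 60 (26.3%) were called lower in RNA, beside 7.15% of all tested genes in that state. The 3 with a region in the vehicle list alone were not called (log2 fold changes of -0.34, -0.17 and 0.21). Of all tested genes in that state, 1.67% were called lower and 7.80% higher. With 1 combined list per treatment there is no replicate of these counts and no test.

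Zfp235 and Zfp217, which moved in opposite directions in RNA, were both among the 11 with no region at the outermost listed start. When any listed start was accepted, an alternative chosen after seeing the data, 232 members had a region in both lists and 7 in neither; Zfp217 then had one in both and Zfp235 still had none. For 52 further members the strand was not known, and 47 of them had a region at either end of the gene in both lists. Of the other 5, Zfp574 and Zfp182 had one in the MS275 list alone and 3 members had none.

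The opposite end of the genes was open less often. Regions lay there in both lists for 37 members (15.3%, against 23.3% of all genes), in the vehicle list alone for 31 (12.8%, against 13.1%), in the MS275 list alone for 12 (4.96%, against 7.64%) and in neither for 162 (66.9%, against 56.0%). The RNA was called lower for 12 of the 31 with a region in the vehicle list alone and for 2 of the 12 with one in the MS275 list alone (38.7% and 16.7%), beside 5.93% and 5.07% of all genes in those states. It was called lower for 25.3% of the 162 members with a region in neither list, beside 7.21% of all such genes, and no test was made between these states. The vehicle list was the larger one, with 177906 regions over 92.2 Mb against 161788 regions over 80.1 Mb in all.

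The width of open DNA around the start can be compared for the 228 members with a region in both lists. Their regions covered a median of 1078 bp of the window in the vehicle list and 1022 bp in the MS275 list. It was wider with MS275 for 96 members (42.1%) and narrower for 130 (57.0%), beside 39.2% and 60.1% of all genes. For the 60 called lower in RNA, 28 were wider and 32 narrower, with medians of 1017 and 1019 bp. The members that were lower in RNA thus had no larger share of narrower regions than all genes had.

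**Figure D5:**
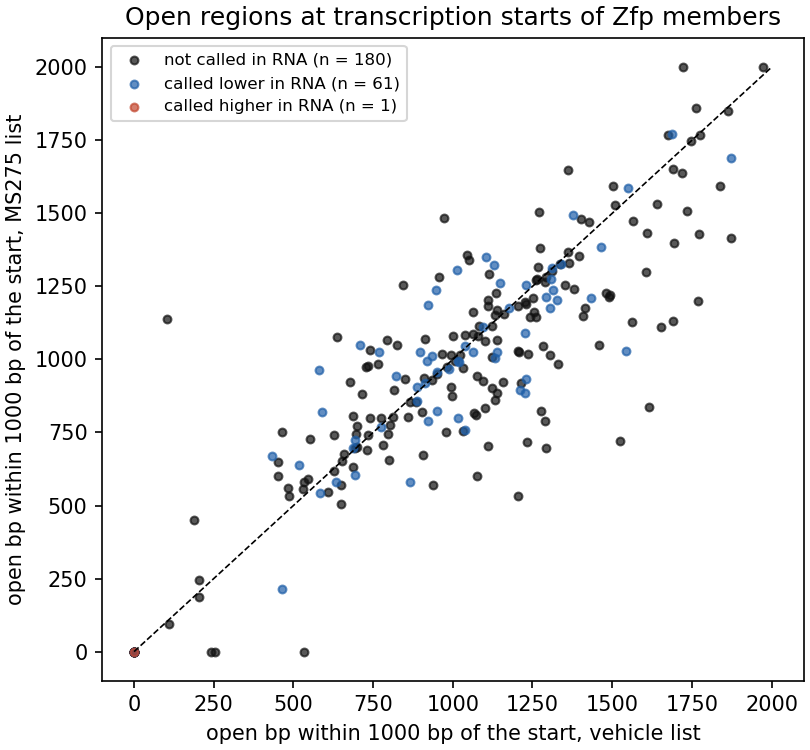
Base pairs covered by open regions within 1000 bp of the transcription start in the MS275 list (vertical axis) against the vehicle list (horizontal axis), 1 point for each of 242 members, coloured by the RNA call; the dashed line marks equality. The points lie along the line, with 130 of the 228 members present in both lists under it and 96 above it.

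Promoters of the members were poorer in G and C than those of all tested genes. Over the window from 250 bases before the start to 50 after it, the median was 54.8% G and C with 15 CG dinucleotides for 242 members, against 60.3% and 20 for 12385 tested genes. Members called lower had a median of 13 CG and those not called of 16. Across members, fold change and CG number had a Spearman coefficient of 0.17, against -0.18 across all tested genes, as a description over genes.

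The 6 motifs were searched as exact letters on both strands of this window, and a match is a description, not a binding site. The ETS-type motif CCGGAAG was found in 21.9% of the members, 15.9% of tested genes and 8.86% of all 32851 promoters of the table. The Sp-type motif GGGCGG was found in 46.3% of members, 61.2% of tested genes and 35.7% of all promoters. The Zfp143-type motif ACTACAA, read by a factor that is itself a member (log2 fold change -0.07, adjusted p = 0.655), was found in 7.44%, 4.00% and 3.24%. The CREB-type motif TGACGTC was found in 4.13%, 5.19% and 3.21%, and the Nrf1-type motif GCATGCG in 7.02%, 6.01% and 3.58%.

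The Yy1-type motif ATGGCGG was the one whose share differed most between called and other members. It was found in 11.2% of members, 7.27% of tested genes and 4.05% of all promoters, and in 23.0% of the members called lower against 7.22% of those not called. Put the other way, 14 of 27 members with the motif (51.9%) were called lower, with a median of -0.34, against 47 of 215 without it (21.9%), with a median of -0.20. Over all tested genes, 11.2% of the 901 with the motif and 6.05% of the 11484 without it were called lower. The motif was singled out after the values of all 6 had been seen, and no test was made.

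The stretches below show that motif in capitals in the 5 members with the lowest fold change that are called lower and hold it, because they show what surrounds it. Each is 27 bases, 1 match per member, printed 5′ to 3′ on the strand that reads ATGGCGG, from the same RefSeq table (GRCm38.p6).

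Zfp472, chr17:32965799-32965825, minus strand: gaactcaaatATGGCGGcaagggagcc
Zfp84, chr7:29768552-29768578, plus strand: gctcagccacATGGCGGaagtggctgg
Zfp882, chr8:71908591-71908617, minus strand: aggaagaaagATGGCGGgtgaagaact
Zfp619, chr7:39517738-39517764, minus strand: aacccggagcATGGCGGcgaaaaaccc
Zfp868, chr8:69625525-69625551, plus strand: tttagctaacATGGCGGccgaaaagaa

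Positions were counted along the gene's own strand, from 0 at the start, whichever strand is printed. The matches ran from -22 to -16 in Zfp472, 10 to 16 in Zfp84 and -5 to 1 in Zfp882. In Zfp619 the match ran from -18 to -12 and in Zfp868 from 7 to 13. Over all 27 members with the motif there were 29 matches, and none overlapped a match to another of the 6 motifs. Along the gene's own strand, 13 began before the start and 16 at or after it. Of the 29, 4 read ATGGCGG on the gene's own strand and the others on the opposite one. Zfp84 is one of the 4, and its match begins after the annotated start.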

How the data were processed

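RNA-seq and ATAC-seq came from 12 samples in 4 groups of 3, assigned from the sample labels, and the series' design text calls the triplicates biological. The deposited RNA files hold raw counts per gene symbol, from poly(A) RNA in directional libraries read as 75 bp pairs, per the labels' protocols. The submitters' processing notes name, without roles, FastQC 0.10.1, STAR 2.7.0, R 3.5.0, limma 3.38.3 and edgeR 3.24.3, and build mm10. The read counter and the strand option it ran with are not given in the sources used, so reads of overlapping, antisense or near-identical genes may be split or lost; 12.4% to 14.1% of reads were set aside as not unique. The 5 rows per file that name no gene (18.9% to 20.6% of reads) stayed out. The deposited ATAC lists, 1 per treatment from combined replicates, carry per entry the -log10 of its p-value and q-value, a score, the position of the summit and a ratio (fold enrichment), all from a caller that the authors ran and that is not named in the sources used here.

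The quasi-likelihood test of edgeR 4.0.16 (R 4.3.3) was run on the counts, 2-sided, with TMM scaling, filterByExpr and treatment only, and p-values were adjusted by Benjamini-Hochberg over 16819 genes. All 295 members were tested, and 18 of the 43 symbols below 1 CPM. CPM are counts over TMM-scaled library sizes, and compare libraries, not genes of different length. Standard errors are the log2 fold change over the root of the quasi-likelihood F statistic. Ratios to the vehicle mean used a pseudocount of 0.5 CPM. Depth, 34992533 to 60370523 assigned reads, and a biological coefficient of variation of 8.62% set the precision. The test was checked on simulated data.

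Positions came from RefSeq tables of GRCm38.p6, the assembly of mm10. Zfp191, Zfp259 and Zfp862 were matched as synonyms of the RefSeq genes Zfp24, Zpr1 and Zfp862-ps, whose positions they were given. Zfp125 had no match, and 102 members overlap another gene. Overlapping ATAC entries were merged within a list, and an overlap of 1 bp with a window of 1000 bp either side of the outermost listed start counted. Protein features were not analysed here, and 1 promoter motif match is not reported here. The members and all lists were chosen with earlier results of these data known. Named members were the 15 lowest and up to 10 highest called with separate groups, the 3 either side of 1 CPM, the 3 of highest level, the lowest of each cluster, co-repressors of smallest p with Trim28, Setdb1, Hdac1 and Hdac2, and members with a region in 1 list. Alternatives were DESeq2 1.42.0, limma 3.58.1 voom, other scalings, filters, windows and level limits, each library left out, the replicate number as a block and the muscle level as a covariate; the members free of overlap and any annotated start were added after seeing the data.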

Additional observations from a re-analysis of the deposited data

How the results depend on the processing

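The share of all genes tested that were called lower was 5.89% in the fit reported. It was 6.81% with DESeq2, 5.81% with voom, 4.55% without the filter and 5.48% with upper-quartile scaling. The number of members called lower, 74, was 82, 79, 82 and 73 in these fits, in the same order. It moved to 0 with the muscle covariate, where 1 member was higher, the median was -0.18 and 0 co-repressor genes were called, and to 15 to 84 with single libraries left out (1 to 4 higher, 1 to 7 co-repressor genes). The median moved to -0.24 with no scaling beyond the library total and to -0.18 for the 220 members averaging at least 5 CPM. Among 192 members that overlap no other gene, 52 (27.1%) were lower and 1 higher, beside 5.89% of all tested genes lower. Counts of members with a region at the start stayed between 224 and 232 under other windows, thresholds, starts and list sizes. Signs turned for single genes near 0 or near the level limit: with the muscle covariate Zfp429 was at 0.094, Zfp185 at -0.0094 and Zfp182 at 0.0012, Zfp706 ran from -0.015 to 0.0078 and Zfp106 from -0.073 to 0.0027 with single libraries left out, and Hdac1 was at -0.015 with no scaling. The cause of these shifts was not tested, except that leaving out a library leaves fewer samples. With the replicate number as a block, 78 members were lower and 3 higher, beside 6.58% of all tested genes lower, and 70 of the 74 were called again. The same-numbered libraries had correlations of deviations of 0.02, 0.11 and -0.06, so the numbers do not pair the samples. Counts under about 2 CPM limit what single members can show, as 3 of 22 were called there.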

Other observations

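The share of members called differed between ranges of gene length without following their order. Of members spanning 10 to 20 kb, 39 of 119 (32.8%) were lower, against 9 of 48 (18.8%) under 10 kb, 22 of 92 (23.9%) from 20 to 40 kb and 4 of 35 (11.4%) at 40 kb and above. The 3 members called higher, Zfp217, Zfp608 and Zfp516, all belonged to the 35 longest. Over all tested genes the shares lower were 3.25%, 6.52%, 6.98% and 7.57% from the shortest to the longest range, so the share of the longest members was the nearest to that of all genes of their length. Fold change and length had a Spearman coefficient of 0.10 across 294 members and -0.15 across all tested genes with a position. These are descriptions over genes, and no test was made between the lengths.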
